A study of Rattus norvegicus with 12 samples.

Results

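The comparison described here set the 9 libraries from cells that received a KAT6A adenovirus, as 1 set, against the 3 libraries from cells that received a LacZ adenovirus, so that all 12 libraries of the study entered. Its members were all genes with enough reads to be tested, which were 14063 of the 32883 genes in the count table. RNA came from primary ventricular heart muscle cells of newborn rats, beating cells in culture, 2 days after the virus was added. All groups carried an adenovirus, and the labels give no group without one. The cargo was human KAT6A as the wild-type protein (WT), with arginine in place of a lysine, a change that resists acetylation there (K815R), with glutamine in its place, a change that mimics acetylation (K815Q), or LacZ, a bacterial enzyme used as a control cargo. Each of the 4 groups had 3 libraries. Nothing in the labels says that these came from separate cultures, so the p-values below measure the spread between these samples, which may be technical. Every comparison rests on the same 3 LacZ libraries and on overexpression from a virus.

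KAT6A is a lysine acetyltransferase that acts on histone H3 in a complex with a BRPF scaffold protein, ING5 and MEAF6. It is known for keeping developmental and stem cell genes active and for restraining the Cdkn2a locus. Cells that sense viral nucleic acid release type I interferon, which, through a signalling chain that ends in the transcription factor IRF9 and its partners, raises genes with an interferon-stimulated response element in their promoters. Neonatal heart cultures hold cardiac muscle cells together with fibroblasts, some endothelial cells and resident macrophages, and some of these cells still divide.

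The libraries held 19102048 to 25451686 reads assigned to genes. Levels are given as CPM, counts scaled by library size with TMM factors. Cardiac muscle transcripts were abundant in all 12 libraries (Tnnt2 at 7884 to 9051 CPM), and so were fibroblast transcripts (Col1a1 at 7213 to 8614 CPM). Macrophage markers were low but present (Cd68 at 12.3 to 20.2 CPM), and the T cell marker Cd3e was at or near 0. Since these are bulk samples, fewer cells of a type and less RNA per cell cannot be told apart. Some libraries stood apart and touch the results below. LacZ replicate 2 had the highest summed level of 61 core interferon-induced genes, 3499 CPM against 2499 and 2543 in the other two LacZ libraries. It also had the lowest summed level of the macrophage list, 538 CPM against 673 and 613. Kat6a, whose reads cannot be assigned to the human cargo or the rat gene, stood at 45.5, 45.2 and 53.6 CPM in LacZ, 82.0 to 106 in WT, 101 to 122 in K815R, and only 43.4, 50.0 and 45.7 in the libraries labelled K815Q. The rise that the label implies was not measured in those libraries, so counts are also given without them, and genes whose calls they decide are named.

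The 9 KAT6A libraries differed from LacZ in 936 genes at an adjusted p under 0.05 (edgeR's quasi-likelihood test, Benjamini-Hochberg adjustment), which is 6.66% of those tested. Of these, 330 were higher (2.35%) and 606 were lower (4.31%). Lists of interferon-induced and MHC class I (RT1 in the rat) genes held 126 of the lower genes, which left 330 higher and 480 lower genes outside them. The changes outside were small. Their median log2 fold change was 0.25 among the higher genes and -0.32 among the lower ones, against -0.89 among the lower genes in the lists. Outside the lists 8 higher and 21 lower genes changed at least 2-fold, and inside them 55 did. All 9 KAT6A libraries lay above all 3 LacZ libraries for 178 of the higher genes (1.27% of genes tested), and all 9 lay below for 262 of the 480 lower ones. Over both kinds of lower gene the latter was met by 371 genes, or 2.64%.

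**Figure D1:**
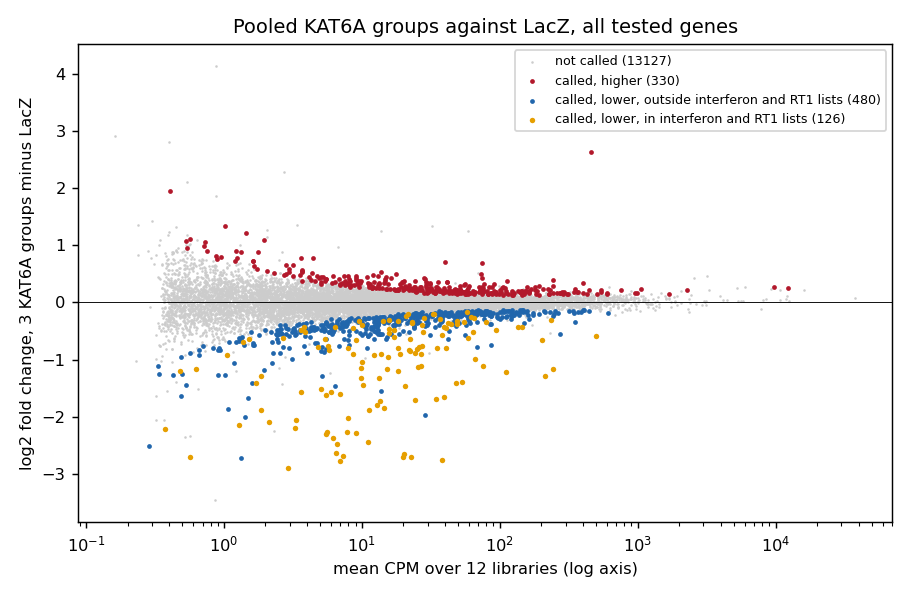
Each point is a tested gene, with its mean CPM over the 12 libraries (log axis) against the log2 fold change of the 3 KAT6A groups minus LacZ. Colours mark the 330 higher genes, the 480 lower genes outside the interferon and RT1 lists and the 126 lower genes inside them. The called genes that rose have a median of 0.25, and Prkaa2, at 2.62, is the highest of them, while some genes that were not called lie higher, up to 4.14.

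Many of these calls rested on single libraries. Each of 12 leave-one-out fits, in which 1 library was dropped, kept the call for 46 of the 330 higher genes and 117 of the 480 lower ones outside the lists. Without LacZ replicate 2 there were 85 higher and 153 lower genes outside the lists, and without LacZ replicate 3 there were 102 and 227. Without the libraries labelled K815Q the counts were 173 and 286. Leaving out K815R replicate 2 instead raised the higher count to 463. Called genes named below whose call was lost in any of the 12 fits are marked by the number of fits that kept it or by the libraries it depended on. Without the libraries labelled K815Q, the rises of Tcf21, Gata6, Foxc2, Irx1, Mrc1, Clec10a, Tyrobp and Fcer1g were not called. Nor were those of Mt-co2, Mt-atp6, Trib3, Phgdh, Atf4 and Ptp4a3. The same held for the decreases of Lcn2, Vcam1, Xirp2, Zfp36, Btg2, Adgre1, Angptl4, Rcan1 and Stard4.

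Set against LacZ on its own, WT was higher in 274 genes (1.95%) and lower in 477 (3.39%), K815R in 104 (0.740%) and 244 (1.74%), and the libraries labelled K815Q in 403 (2.87%) and 701 (4.98%). These comparisons share the LacZ libraries. Called in all 3 were 23 higher genes (0.164%) and 159 lower genes (1.13%), of which 74 lay outside the interferon and RT1 lists. The count of 23 fell to 4 without K815R replicate 3. Of the 936 genes called in the pooled comparison, 81 were called in no group alone, 422 in 1, 251 in 2 and 182 in all 3. Genes named below that were not called in K815R alone included Irx4, Mmp12, Gpnmb, Trem2, Pink1, Srsf5, Hexim1, Myh7b, Cdkn1a, Aen and Prkaa2. Cacna1g was not called in the libraries labelled K815Q alone. In sign, 323 of the 330 higher genes had a positive fold change in each of the 3 groups, and 599 of the 606 lower genes a negative one. These genes were chosen by the mean of the same 3 fold changes, against the same LacZ libraries, so their agreement in sign is largely built in. Of the 936 genes, 68 also differed among the 3 KAT6A groups, a test that called 302 of all genes (2.15%).

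The 23 genes called as higher in all 3 KAT6A groups included regulators of growth and transcription, RNA-binding proteins, secreted factors and products of phagocytes. In the pooled comparison, 20 of the 23 were called in all 12 leave-one-out fits, the exceptions being Myom2, Tmem51 and Rnasek. In 21 of the 23 the 9 KAT6A libraries did not overlap the LacZ libraries. Cox8b and Myom2 each had a single KAT6A library inside the LacZ range. Over all genes tested, 1.27% were called as higher without overlap. The 23 were chosen by their calls in all 3 groups against the same LacZ libraries. The counts of 20 and 21 are therefore largely built in and are no separate evidence for the set.

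**Figure D2:**
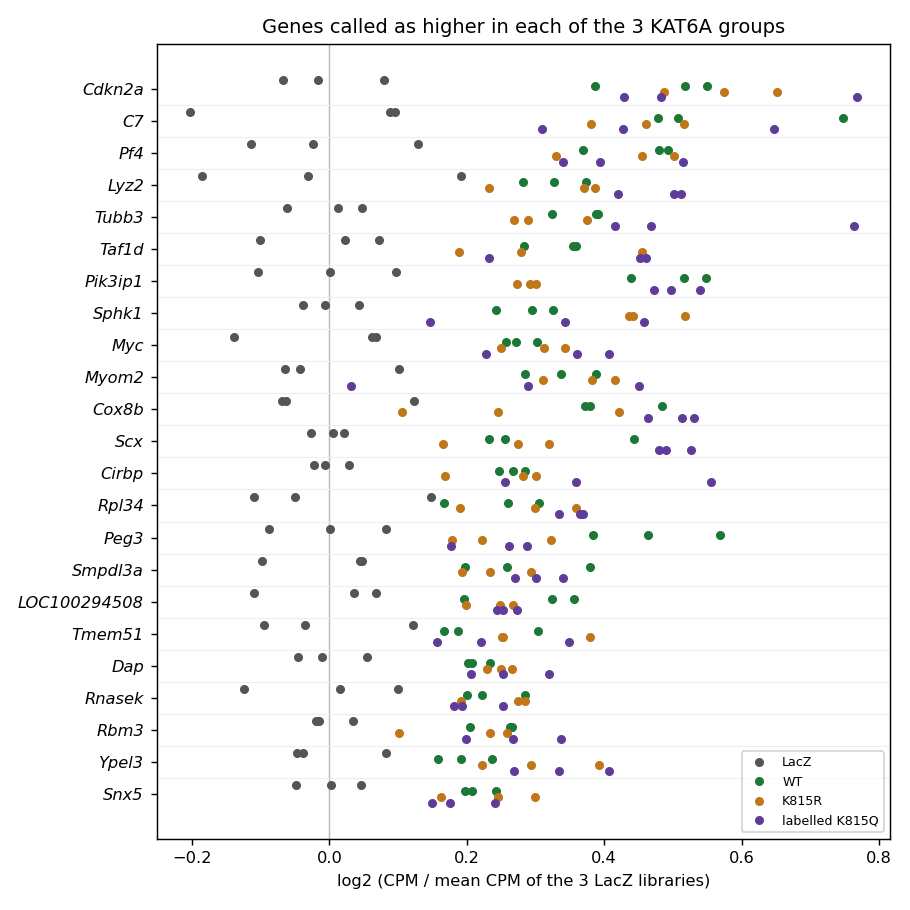
For each of the 23 genes called as higher in all 3 KAT6A groups, the points give the log2 ratio of each library's CPM to the mean CPM of the 3 LacZ libraries, with 3 libraries per group. Apart from 1 library each for Cox8b and Myom2, all KAT6A libraries lie to the right of all LacZ libraries. The genes were chosen by calls against the same LacZ libraries, so this separation is largely built in.

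Pik3ip1, a membrane protein that inhibits phosphoinositide 3-kinase, had the lowest adjusted p of the rising genes. It read 63.3, 59.3 and 55.1 CPM in LacZ and 71.6 to 86.6 (median 82.2) in the 9 KAT6A libraries. No KAT6A library reached down to the LacZ range. The pooled log2 fold change was 0.43 (SE 0.05, adjusted p 1.73e-06), where WT gave 0.50, K815R 0.29 and the libraries labelled K815Q 0.50. The size of this rise differed among the 3 groups (adjusted p 0.0379), while its sign did not. Myc, the growth-promoting transcription factor, read 19.4, 19.4 and 16.8 CPM in LacZ and 21.7 to 24.6 (median 22.9) in the KAT6A libraries. Its log2 fold changes in WT, K815R and labelled K815Q were nearly equal, at 0.28, 0.30 and 0.33 (pooled 0.31, SE 0.06, adjusted p 0.00275). Sphk1, the kinase that makes sphingosine 1-phosphate, rose by a pooled log2 fold change of 0.36. Taf1d, a subunit of the RNA polymerase I promoter factor, rose by 0.34, from 27.2, 24.2 and 26.3 CPM to between 29.5 and 35.7. Peg3, an imprinted zinc-finger protein, rose by 0.32, with 0.47 in WT and 0.24 in each mutant group (adjusted p among the groups 0.0458).

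Cdkn2a, which encodes the cell cycle inhibitors p16Ink4a and Arf, was low but higher in each KAT6A library than in any LacZ library. It read 2.72, 2.63 and 2.91 CPM in LacZ and 3.60 to 4.69 (median 3.94) in the KAT6A libraries. WT gave a log2 fold change of 0.48, K815R 0.57 and the libraries labelled K815Q 0.56 (pooled 0.54, SE 0.11, adjusted p 0.00464). Without the libraries labelled K815Q the pooled value was 0.53 (adjusted p 0.0120). The counts are per gene and do not separate its 2 products.

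Cirbp and Rbm3, related RNA-binding proteins known for their induction by mild cold, rose together. Cirbp read 47.7, 46.5 and 46.0 CPM in LacZ and 52.5 to 68.7 (median 56.9) in the KAT6A libraries (pooled log2 fold change 0.30, SE 0.05, adjusted p 7.52e-04). Rbm3 read 180, 181 and 187 CPM in LacZ and 196 to 231 (median 219) in the KAT6A libraries (0.24, SE 0.04, adjusted p 9.49e-04). For both genes the LacZ libraries lay close to each other and below all 9 others. Srsf5, a splicing factor, rose by 0.21, and Hexim1, an inhibitor of the elongation factor P-TEFb, by 0.26, both without overlap and in all 12 leave-one-out fits.

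Several rising genes belong to connective tissue or the cytoskeleton. Scx (scleraxis), the transcription factor of tendon and of collagen-producing cells, read 29.5, 29.8 and 28.8 CPM in LacZ and 32.9 to 42.3 (median 36.6) in the KAT6A libraries. Its log2 fold change was 0.36 (SE 0.05, adjusted p 1.72e-04), and the 3 groups gave 0.31, 0.25 and 0.50. C7, a complement component, read 59.9, 48.7 and 59.6 CPM in LacZ and 69.5 to 94.1 (median 78.1) in the KAT6A libraries (0.50, SE 0.08, adjusted p 0.00362). LacZ replicate 2 was the lowest library for C7, and without it the log2 fold change was 0.41 (adjusted p 0.0102). Tubb3, a beta-tubulin best known from neurons, rose from 23.6, 21.9 and 23.0 CPM to between 27.5 and 38.8 (0.41, SE 0.06, adjusted p 2.59e-04). Nes, the intermediate filament nestin, rose from 6.16, 6.02 and 6.35 CPM to between 7.35 and 10.9 (0.47, SE 0.10, adjusted p 0.00504). The list of Schwann and neural genes that holds Tubb3 had 2 of 10 members higher, and its defining marker Sox10 stayed at or below 0.428 CPM. For this list and the fibroblast list, the shares over all genes are 2.35% higher and 4.31% lower. The fibroblast and matrix list had no common direction, with 4 of 49 members higher (0 without LacZ replicate 2 or 3) and 3 lower, and its summed level overlapped between the groups (33978 to 36330 CPM in LacZ and 33188 to 36525 in KAT6A).

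Transcription factors of heart patterning were among the small rises. Of 28 tested cardiac transcription factors, 6 were called as higher and 1, Foxf1, as lower (called in 6 of 12 fits). The shares over all genes are 2.35% higher and 4.31% lower. The 6 included Irx3, Irx4 and Irx5 of the Iroquois homeobox family, which patterns the ventricles and the conduction system. Irx4, the ventricular member, read 94.5, 97.9 and 95.8 CPM in LacZ and 103 to 127 (median 114) in the KAT6A libraries (log2 fold change 0.25, SE 0.05, adjusted p 0.00135). In K815R alone Irx4 was not called (0.15, adjusted p 0.178). Irx5 stood at 21.0 ± 0.827 CPM in LacZ (SD, n = 3) and 23.9 to 29.8 (median 24.4) in the KAT6A libraries (0.28, SE 0.06, adjusted p 0.00660). Taken group by group, Irx5 was called only in the libraries labelled K815Q (adjusted p 0.00274, against 0.115 in WT and 0.0843 in K815R). Without those libraries its pooled value was 0.23 (adjusted p 0.0251). Irx3 read 54.8, 49.2 and 50.1 CPM against 56.0 to 79.5 (median 61.4), a log2 fold change of 0.29 (adjusted p 0.00696). None of the 3 overlapped between the groups, and the calls of Irx4 and Irx5 were kept in all 12 fits. That of Irx3 was lost without LacZ replicate 2 (0.26, adjusted p 0.0802) and without LacZ replicate 3 (0.27, adjusted p 0.0680). Of the family's other members, which are not on the list, Irx1 gave 0.27 (adjusted p 0.0395, called in 4 of 12 fits) and Irx2 was not called (0.06, adjusted p 0.759). Gata6, a zinc-finger factor of heart development, rose by 0.18, a call kept in 10 of 12 fits and lost without the libraries labelled K815Q (0.18, adjusted p 0.0641). Group by group it was called only in those libraries. The forkhead factors Foxc1 and Foxc2 rose by 0.33 and 0.47, unequally among the groups and each in 10 of 12 fits. The count of 6 fell to 2 without LacZ replicate 2, to 2 without LacZ replicate 3 and to 4 without the libraries labelled K815Q.

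Other regulators outside that list rose as well. Hes1, the Notch effector, read 60.8, 65.7 and 65.5 CPM in LacZ and 72.8 to 105 (median 78.3) in the KAT6A libraries (0.33, SE 0.07, adjusted p 0.00856), a call kept in 11 of 12 fits. Taken group by group, Hes1 was called only in the libraries labelled K815Q (adjusted p 0.00244, against 0.133 in WT and 0.105 in K815R). Among 33 immediate early genes, 3 were higher (Egr3 by 1.33, Klf2 by 0.48 and Myc by 0.31), while Zfp36 and Btg2 were lower. Over all genes 2.35% were higher and 4.31% lower. The calls of Egr3 and Zfp36 were kept in 10 of 12 fits and that of Btg2 in 8. Klf2, a zinc-finger factor that restrains inflammatory genes, differed among the groups, since WT gave a log2 fold change of 0.17, K815R 0.57 and the libraries labelled K815Q 0.69. Tcf21, a factor of cardiac fibroblasts and the epicardium, rose by 0.37 (adjusted p 0.00898), with 10 of 12 fits keeping the call.

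Among the 33 lists, the macrophage and leukocyte list had the highest share of rising members. Of its 38 tested members 11 were higher and 2 were lower, beside 2.35% and 4.31% of all genes. The list's median log2 fold change was 0.23, against 0.01 over all genes. Pf4, a chemokine of platelets and tissue macrophages that lies outside the list, rose to nearly the same extent in each group. It read 24.5, 20.7 and 22.0 CPM in LacZ and 28.1 to 32.0 (median 30.7) in the KAT6A libraries. WT gave 0.45 on the log2 scale, K815R 0.43 and the libraries labelled K815Q 0.42 (pooled 0.43, SE 0.06, adjusted p 8.27e-05). Lyz2, the lysozyme of phagocytes, read 22.6, 17.4 and 19.3 CPM in LacZ and 23.2 to 28.2 (median 25.6) in the KAT6A libraries (0.38, SE 0.07, adjusted p 8.53e-04). Mmp12, the macrophage elastase, read 31.9, 20.9 and 28.2 CPM in LacZ and 35.3 to 51.9 (median 43.8) in the KAT6A libraries (0.71, SE 0.11, adjusted p 0.00284). For Lyz2 and Mmp12 every KAT6A library lay above the highest LacZ library, and LacZ replicate 2 was the lowest of all 12. Without that library the values were 0.29 for Lyz2 (adjusted p 0.0281) and 0.56 for Mmp12 (adjusted p 1.98e-04). Gpnmb, a lysosomal glycoprotein of phagocytes, read 371, 297 and 335 CPM in LacZ and 376 to 487 (median 414) in the KAT6A libraries (0.34, adjusted p 0.00141).

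The other rising members of that list were Trem2 and its partner Tyrobp, Cd53, Laptm5, Clec10a, Fcer1g, Lcp1 and Mrc1, with log2 fold changes from 0.33 (Mrc1) to 0.77 (Trem2). Trem2, Laptm5 and Lcp1 were called in 11 of the 12 fits, Cd53, Clec10a and Fcer1g in 10 and Tyrobp in 4. Mrc1, the mannose receptor, was called in 5 of the 12 fits, and without LacZ replicate 2 its value was 0.17 (adjusted p 0.241). The count of 11 fell to 3 without LacZ replicate 2, to 7 without LacZ replicate 3 and to 7 without the libraries labelled K815Q. The 2 members that fell are both receptors. Fcgr3a, an Fc receptor, read 4.48, 5.62 and 4.79 CPM in LacZ and 1.86 to 3.23 (median 2.66) in the KAT6A libraries (-0.99, SE 0.12, adjusted p 8.66e-06). Adgre1, which encodes the macrophage surface protein F4/80, fell by 0.40 on the log2 scale and kept its call in 2 of 12 fits. Of the general markers of the cell type, Adgre1 lay lower without overlap (2.94 to 3.27 CPM in LacZ and 1.93 to 2.83 in KAT6A). Cd68, Csf1r, Ptprc and C1qa overlapped between the groups. Cd68 stood at 12.3 to 17.2 CPM in LacZ and 15.1 to 20.2 in KAT6A, and Csf1r at 7.89 to 8.46 and 8.28 to 11.2. Ptprc stood at 2.18 to 3.65 and 2.87 to 4.21, and C1qa at 5.29 to 7.04 and 6.29 to 7.59. The summed level of the list ran from 538 to 673 CPM in LacZ and from 693 to 833 in KAT6A, without overlap. Gpnmb alone gave a large part of this sum, 297 to 371 CPM in LacZ and 376 to 487 in KAT6A. What part macrophage content has in the other rises was not tested. Of 5 red cell genes 3 were lower, beside 4.31% of all genes. Of these 5, 1 was lower without LacZ replicate 1 or WT replicate 2, and 0 without LacZ replicate 2 or the WT libraries. Their summed level overlapped between the groups, with Hbb (called in 11 of 12 fits) at 9.01, 7.84 and 5.45 CPM in LacZ and 2.48 to 6.54 in KAT6A, and Alas2 was near 0 throughout. Csf1, the growth factor for macrophages, moved the other way. It read 97.2, 103 and 106 CPM in LacZ and 75.5 to 83.6 (median 78.4) in the KAT6A libraries (-0.38, SE 0.04, adjusted p 1.73e-06), where WT gave -0.38, K815R -0.41 and the libraries labelled K815Q -0.35.

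**Figure D3:**
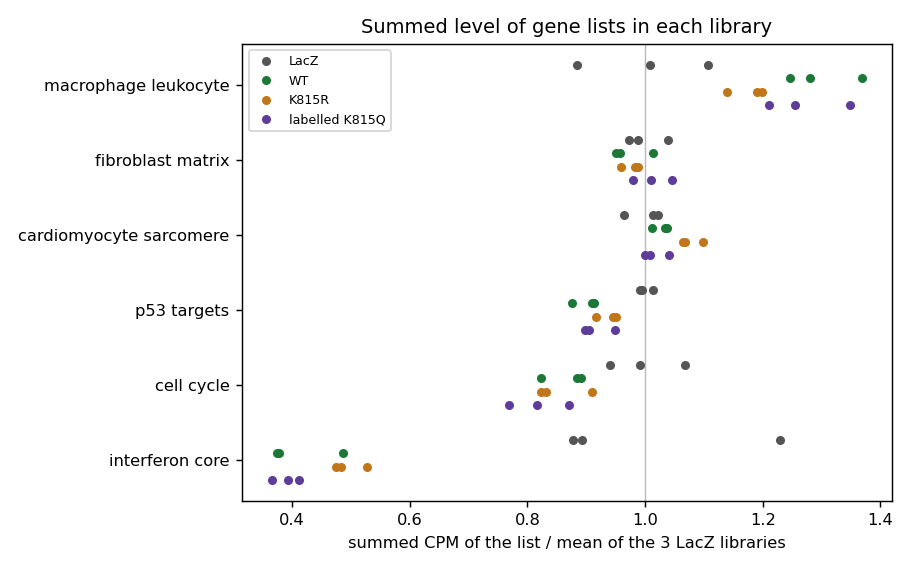
Points give the summed CPM of 6 gene lists in each library, divided by the mean of the 3 LacZ libraries, with 3 libraries per group. Gpnmb alone gives a large part of the macrophage sum. The macrophage list lies above LacZ in all 9 KAT6A libraries (693 to 833 against 538 to 673 CPM), the interferon, cell cycle and p53 lists lie below, and the fibroblast and sarcomere lists overlap.

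Genes of the heart muscle cell's own machinery moved little. Of 36 tested sarcomere genes 3 were higher and 1 lower, with a median of 0.05, and without any one of the LacZ libraries 1 was higher. Mybpc3, a thick-filament protein, read 1546, 1576 and 1555 CPM in LacZ and 1609 to 1871 (median 1701) in the KAT6A libraries (0.15, SE 0.04, adjusted p 0.0371), a difference without overlap that was called in 5 of 12 fits. Myom2, a protein of the M band, rose by 0.33 (11 of 12 fits). Xirp2, a protein of the intercalated disc, fell by 0.28 on the log2 scale, and without the libraries labelled K815Q it was not called (-0.21, adjusted p 0.0633). Myh7b, a myosin heavy chain of striated muscle outside the list, read 94.1, 95.9 and 88.4 CPM in LacZ and 104 to 142 (median 115) in the KAT6A libraries (0.37, SE 0.04, adjusted p 6.20e-06), unequally among WT (0.57), K815R (0.19) and the libraries labelled K815Q (0.34). Among 51 calcium-handling and channel genes, 5 were higher and 2 lower. For this list and the sarcomere list, the shares over all genes are 2.35% higher and 4.31% lower. Pln, phospholamban, which inhibits the calcium pump of the sarcoplasmic reticulum, read 2111, 1942 and 2050 CPM in LacZ and 2210 to 2470 (median 2361) in the KAT6A libraries (0.21, SE 0.04, adjusted p 0.00307). Cacna1g, a T-type calcium channel, read 163, 161 and 175 CPM against 181 to 240 (median 201), a log2 fold change of 0.29 (adjusted p 6.19e-04). Both genes separated the groups, but without LacZ replicate 2 Pln was not called (0.18, adjusted p 0.0632), and the list's 5 rises came down to 1.

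Prkaa2, the alpha 2 catalytic subunit of AMPK, had the largest log2 fold change of the called rising genes. It read 55.4, 54.8 and 72.7 CPM in LacZ, 435 to 633 in WT and 78.1 to 95.4 in K815R. The libraries labelled K815Q read 1134 to 1232 CPM. All 9 libraries lay above LacZ, yet the level in K815R was far below that in the other KAT6A groups (adjusted p among the groups 7.34e-05). The pooled log2 fold change of 2.62 (SE 0.15) is therefore a mean of unlike values, and it was 1.80 without the libraries labelled K815Q. It was the 1 gene called of 12 tested AMPK genes, and of 13 genes of the KAT6A complex and its partners Kat6a alone was (0.69, and 1.06 without the libraries labelled K815Q).

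Mitochondrial and ribosomal genes showed many small positive values and few calls. Among 91 nuclear genes of oxidative phosphorylation, 82 had a positive fold change and 3 were called, with a median of 0.09. All 13 mRNAs of the mitochondrial genome were positive, with a median of 0.25 and 2 called, Mt-co2 and Mt-atp6 (the latter in 7 of 12 fits). Cytosolic ribosomal proteins had 65 of 69 positive values, a median of 0.09 and 5 calls. Over all genes 7299 of 14063 values were positive and 2.35% were called as higher. The summed level of each of these 3 lists overlapped between the groups. For the mitochondrial mRNAs it ran from 99485 to 109150 CPM in LacZ and from 103410 to 132530 in KAT6A. Cox8b, a subunit of cytochrome c oxidase found in striated muscle, stood out from its list. It read 214, 187 and 188 CPM in LacZ and 211 to 284 (median 263) in the KAT6A libraries (0.39, SE 0.06, adjusted p 1.59e-04). Only 1 K815R library lay inside the LacZ range. Rpl34, a protein of the large ribosomal subunit, read 232, 202 and 194 CPM against 235 to 271 (median 259), a log2 fold change of 0.30 (adjusted p 5.76e-04). Mt-co2 read 8825, 7685 and 8539 CPM against 8848 to 11474 (median 9833), and its call was lost without LacZ replicate 2 (0.22, adjusted p 0.132) and without LacZ replicate 3 (0.29, adjusted p 0.0530). These counts of calls moved with single libraries: without K815R replicate 2 the first list had 26 rises, and without LacZ replicate 2 the 3 lists had 1, 0 and 1. Pink1, a kinase that marks damaged mitochondria, lies outside these lists and rose by 0.24 in all 12 fits. Of 36 fatty acid oxidation genes 1 was called, a decrease of Angptl4 that was kept in 7 of 12 fits.

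Stress pathways gave scattered calls, to be set beside 2.35% of all genes higher and 4.31% lower. Among 30 genes of the integrated stress response, 4 were higher, namely Chac1 (0.43), Trib3 (0.26), Phgdh (0.21) and the transcription factor Atf4 (0.16). None of these 4 was called without LacZ replicate 2 or without LacZ replicate 3, and Chac1 was called in 8 of 12 fits. The NRF2 antioxidant list had 3 decreases of 27, or 1 without LacZ replicate 2, of which Me1, malic enzyme, was the firmest (150, 156 and 160 CPM in LacZ against 125 to 144, or -0.22 on the log2 scale, adjusted p 7.09e-04).

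**Figure D4:**
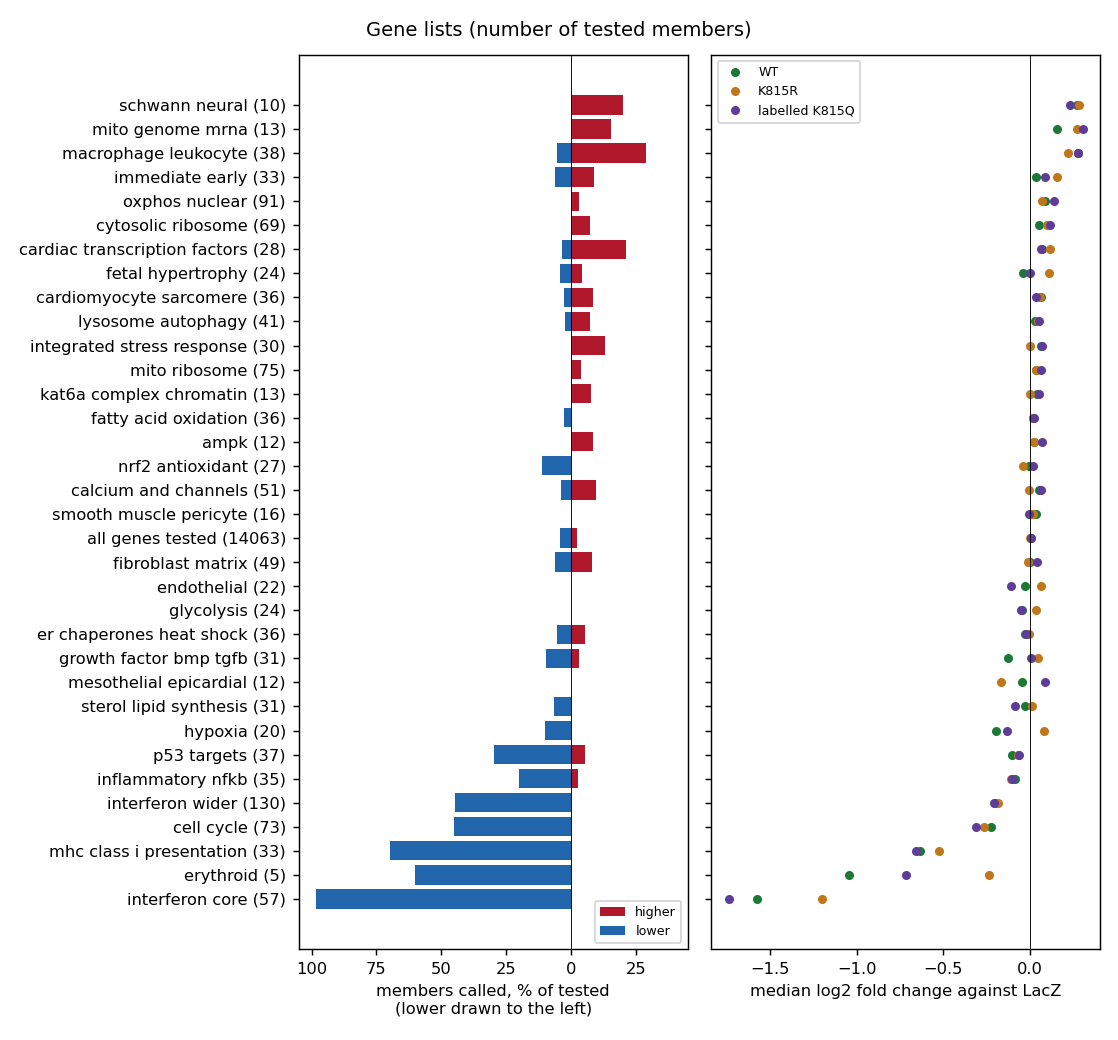
Left, the percentage of each list's tested members called as higher (right of 0) or lower (left of 0) in the pooled comparison, with the number tested in brackets. Over all tested genes these percentages are 2.35% and 4.31%. Right, the median log2 fold change of the list against LacZ in each KAT6A group; all 3 share the LacZ libraries. Macrophage genes, with 11 of 38 higher, stand near the top, and interferon, MHC class I and cell cycle genes near the bottom.

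Outside the interferon lists, part of the cell cycle list was lower. Of its 73 tested genes 33 were lower, 0 were higher and 40 were not called. Over all genes 4.31% were lower and 2.35% higher. The list's median log2 fold change was -0.29 (WT -0.22, K815R -0.27, libraries labelled K815Q -0.31). Prc1, which bundles microtubules of the spindle midzone, read 52.0, 63.5 and 58.8 CPM in LacZ and 31.7 to 44.0 (median 36.4) in the KAT6A libraries (-0.64, SE 0.09, adjusted p 7.27e-04). Mki67, the proliferation antigen, read 41.1, 46.6 and 45.2 CPM in LacZ and 30.4 to 37.4 (median 34.0) in the KAT6A libraries (-0.40, SE 0.05, adjusted p 5.09e-05). Top2a, the topoisomerase of dividing cells, read 63.5, 74.0 and 69.1 CPM against 48.6 to 59.4 (median 49.4), a log2 fold change of -0.39 (adjusted p 0.00131). In each of these genes the highest KAT6A library stayed below the lowest LacZ library. Ccnb1, the mitotic cyclin B1, fell by 0.48 on the log2 scale, Aurka, a spindle kinase, by 0.49, and Plk1, a kinase of mitotic entry, by 0.41, all in all 12 fits. Ckap2l, Spag5 and Kif22, spindle proteins outside the list, fell by 0.72, 0.56 and 0.55. The summed level of the list ran from 1439 to 1632 CPM in LacZ and from 1176 to 1391 in KAT6A. LacZ replicate 2 was the highest library. Without it 11 members were lower, without LacZ replicate 3 there were 19, and without the libraries labelled K815Q there were 28.

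Of 37 genes of the p53 pathway 11 were lower and 2, Cdkn2a and Ptp4a3 (11 of 12 fits), were higher. Among all genes tested, 4.31% were lower and 2.35% higher. Cdkn1a, which encodes the cyclin-dependent kinase inhibitor p21, read 184, 203 and 177 CPM in LacZ and 132 to 173 (median 156) in the KAT6A libraries (-0.29, SE 0.05, adjusted p 0.00167). In K815R alone Cdkn1a was not called (-0.15, adjusted p 0.299). Aen, a nuclease induced by p53, read 39.1, 40.4 and 39.3 CPM in LacZ against 29.3 to 35.4 (median 32.5), or -0.30 on the log2 scale (adjusted p 6.39e-04). Neither gene overlapped between the groups. Zmat3 fell by 0.49 on the log2 scale and Fas, a death receptor, by 0.31 (10 of 12 fits), whereas Mdm2, the ubiquitin ligase that limits p53, was not called (-0.07, adjusted p 0.375). The count of 11 was 7 without LacZ replicate 1 and 7 without LacZ replicate 2. Of the 11, Ckap2 is also a spindle protein of dividing cells.

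Some inflammatory genes and single matrix and secreted proteins were lower, to be set beside 4.31% of all genes lower and 2.35% higher. Of 35 genes of the NF-kB and inflammatory list 7 were lower, among them Lcn2, Ptx3, Csf1 and Vcam1 (the last in 11 of 12 fits), and 1, the chemokine Ccl3, was higher in 4 of 12 fits. Lcn2, an iron-binding protein of inflamed tissue, read 84.5, 138 and 77.0 CPM in LacZ and 48.1 to 70.7 (median 55.2) in the KAT6A libraries (-0.78, SE 0.15, adjusted p 0.0225). LacZ replicate 2 stood far above the other two, and without it the log2 fold change was -0.47 (adjusted p 7.25e-06). Without the libraries labelled K815Q the call was lost (-0.69, adjusted p 0.125). Pla2g2a, a secreted phospholipase, read 6.75, 13.9 and 6.93 CPM in LacZ and 2.45 to 4.89 (median 3.82) in the KAT6A libraries, or -1.29 on the log2 scale (adjusted p 0.00833), and -0.87 without LacZ replicate 2 (adjusted p 2.81e-04). The list's 7 decreases came down to 3 without LacZ replicate 2 and to 3 without the libraries labelled K815Q. Tnc, the matrix protein tenascin C, read 178, 177 and 183 CPM in LacZ and 126 to 151 (median 142) in the KAT6A libraries (-0.36, SE 0.05, adjusted p 1.40e-05). Plau, the protease urokinase, was higher (0.54, called in 10 of 12 fits). Myl1, a fast-type myosin light chain, read 14.6, 18.7 and 14.8 CPM against 8.16 to 10.6 (median 9.18), a log2 fold change of -0.80 (adjusted p 4.81e-06). For Tnc and Myl1 all 9 KAT6A libraries lay below LacZ.

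**Figure D5:**
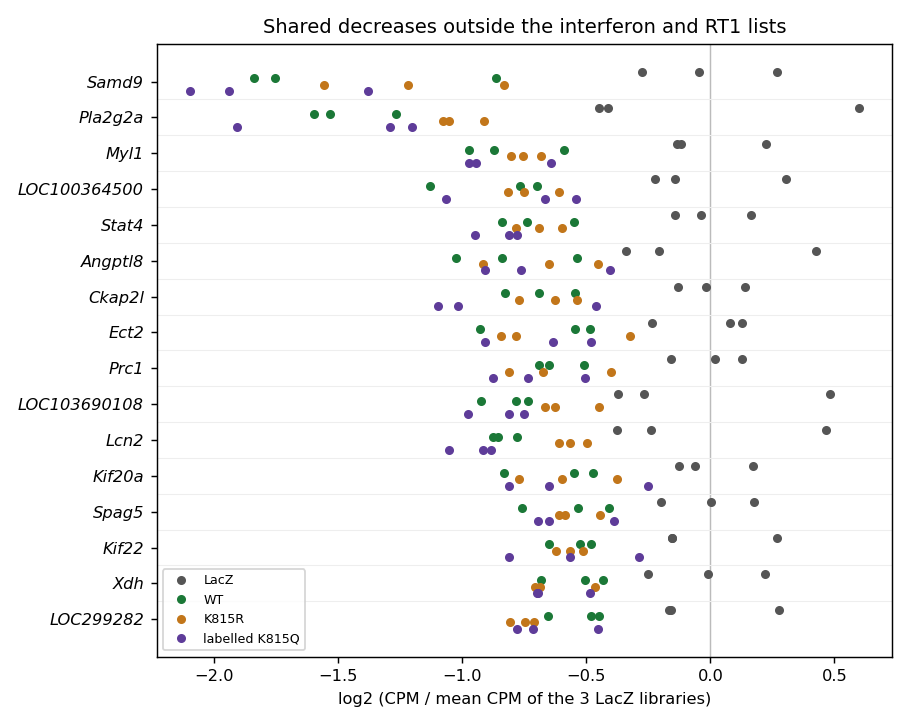
Points give the log2 ratio of each library's CPM to the mean of the 3 LacZ libraries for the 16 genes outside the interferon and RT1 lists chosen by the naming rule among those that fell. LacZ replicate 2 lies at the right-hand end of the LacZ points for genes such as Pla2g2a and Lcn2. All 9 KAT6A libraries lie to the left of all LacZ libraries in each gene because the naming rule required it.

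The interferon response set the scale of the decreases. Of 57 tested core interferon-induced genes 56 were lower, with a median log2 fold change of -1.51, and of 33 MHC class I and antigen presentation genes 23 were lower, with a median of -0.61. Irf7, the factor that amplifies the response, read 75.0, 153 and 81.9 CPM in LacZ and 9.30 to 29.3 (median 12.5) in the KAT6A libraries (-2.75, SE 0.28, adjusted p 7.44e-04). Without LacZ replicate 2 the value was -2.35 (adjusted p 0.00326), and 54 of the 57 core genes were still called. The lists do not hold every gene that interferon is known to induce. Samd9, an antiviral factor outside them, read 9.93, 14.5 and 11.6 CPM in LacZ and 2.81 to 6.75 (median 4.09) in the KAT6A libraries (-1.45, adjusted p 0.00297). Stat4, a signal transducer of cytokine receptors, read 113, 140 and 122 CPM against 64.6 to 85.3 (median 72.8), or -0.75 on the log2 scale (SE 0.06, adjusted p 3.38e-06), and was called in all 3 groups. Cmtr1, the cap methyltransferase, fell by 0.38 on the log2 scale and also lies outside the lists.

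Promoter sequences from RefSeq (assembly GRCr8, 250 bases before to 50 after each start) are shown for a few of these genes because the decreases inside and outside the lists can be set beside a sequence feature. The core of the interferon-stimulated response element was searched as GAAANNGAA on both strands, with overlapping matches allowed. It was found in 3251 of 33469 RefSeq promoters (9.71%) and in 50 of the 105 promoters at hand for the 126 lower genes of the lists (47.6%). Of the genes outside the lists 72.1% of the higher and 74.8% of the lower had a promoter entry, too few for a share to be given. The promoters, in GRCr8, are chr1:241527076-241527375 (plus strand) for Ifit3, chr1:205799974-205800273 (minus) for Irf7, chr4:32138909-32139208 (minus) for Samd9, chr13:85782386-85782685 (plus) for Fcgr3a, chr7:54797962-54798261 (minus) for Lyz2 and chr15:3511938-3512237 (minus) for Plau. All 6 were picked among promoters that hold a match, so they say nothing of how often one occurs. The windows below run 5′ to 3′ along the gene's strand, with the match in capitals. Ifit3 and Irf7 are interferon-induced genes that fell, Samd9 and Fcgr3a fell outside the lists, and Lyz2 and Plau rose.
Ifit3: ttaagtctgtTTCAGTTTCtagtttccac
Irf7: cagtttaggtTTCATTTTCccgagacgca
Samd9: cagagaaacaGAAACTGAAactgaggcag
Fcgr3a: ggtgtttctgGAAAAGGAAactagtgagg
Lyz2: ctcctttaGAAACTGAAgtacttcccc
Plau: tgggatgtagGAAAAGGAAaagaagggag
Samd9 held 3 matches, which began at -35, -23 and -17 from its start, and the last of them is shown. Lyz2 and Plau, which rose, held 1 each, at -242 and -147. A match to these letters is a description of the sequence and does not show that a factor binds there.

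The size of a pooled change was similar across the 3 KAT6A groups in some genes and unequal in others. Pf4, Myc and Cdkn2a gave an adjusted p among the groups of 0.963, 0.885 and 0.906 (edgeR). They were named by a rule that favours genes changed in every group, and these values do not show that the groups were equal. For Myc the 95% interval of the pooled log2 fold change ran from 0.18 to 0.43, for Pf4 from 0.30 to 0.56, and for Cdkn2a from 0.30 to 0.77. Hspa2, a heat shock protein of the HSP70 family, shows the other case. It read 12.9, 13.5 and 12.7 CPM in LacZ, 16.9 to 21.7 in WT and 24.2 to 25.7 in K815R. The libraries labelled K815Q read 12.2 to 13.7 CPM and overlapped LacZ. Its pooled rise of 0.50 thus came from WT and K815R, the groups in which Kat6a was also raised.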

How the data were processed

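Poly(A) RNA was sequenced from neonatal rat ventricular cardiomyocytes in 4 groups of 3 libraries. The authors deposited raw read counts per gene for 32883 genes, which are whole numbers that are not normalized. The submitters' processing notes name Trimmomatic 0.39, HISAT2 2.2.1, HTSeq 0.6.1, edgeR and the build Rnor_6.0, without giving their settings. The strand setting is not given in the sources used here, so overlapping and antisense genes are uncertain. Lines that name no gene held 40.7% to 43.3% of reads and were left out. Reads aligned to more than 1 place were among them, so genes with close copies, such as RT1 genes, are counted from part of their reads.

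Counts of the 14063 genes that passed filterByExpr (at least 10 counts, total at least 15) were scaled by TMM and tested in edgeR 4.0.16 (R 4.3.3) by its quasi-likelihood test in 1 model of 4 group means. The contrast was the mean of the WT, K815R and K815Q means minus LacZ. P-values were adjusted by Benjamini-Hochberg over all genes, with calls made below 0.05. CPM values are TMM-scaled, SE is the standard error of a log2 fold change, and intervals are 95%. Replicates differed by more than sampling noise (chi-square per degree of freedom 4.63 to 9.10), and each was kept. The procedure was tested on simulated data.

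The text names the 20 rising and 16 falling genes outside the interferon and RT1 lists with the largest smallest-of-3 log2 fold change, among called genes with no overlap and at least 5 CPM in a group, then 4 interferon or RT1 genes, the 5 most abundant called genes on each side, and up to 4 called members of each of 33 lists. Not all of these are printed. Genes called in all 3 groups or in all 12 leave-one-out fits, and a few list members, were added after their values were seen. The members and lists were chosen with earlier results of these data known. RefSeq GRCr8 served only for names and promoters. It matched 12710 of the 14063 genes, 10403 with a promoter. Alternatives were RLE and upper-quartile scaling, TMM without interferon genes, no filter, a stricter filter, DESeq2 1.42.0, 2 groups only, a replicate block, a minimum change of 1.2-fold, no robust dispersion, and leaving out each group or library. Results for a few genes are not reported here.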

Additional observations from a re-analysis of the deposited data

Results flagged for a closer look

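A test of any difference among the 3 KAT6A groups was passed by 18 of the 182 genes examined, so the pooled value of these 18 averages unequal changes. Over all 14063 genes it was passed by 302 (2.15%). The 182 were chosen in part by their values. Log2 fold changes against LacZ are given for WT, then K815R, then labelled K815Q, with the adjusted p of the difference by edgeR's quasi-likelihood test. Among rising genes these were Hspa2 (0.57, 0.94 and 0.00, adjusted p 5.44e-06), Prkaa2 (3.09, 0.52 and 4.26, adjusted p 7.34e-05) and Kat6a (0.95, 1.17 and -0.05, adjusted p 3.29e-04). Myh7b gave 0.57, 0.19 and 0.34 (adjusted p 4.05e-04), Klf2 0.17, 0.57 and 0.69 (adjusted p 0.00531) and Cilp2 0.84, 1.78 and 0.66 (adjusted p 0.00654). Foxc1 gave 0.12, 0.62 and 0.25 (adjusted p 0.0184), Foxc2 0.15, 0.47 and 0.78 (adjusted p 0.0240) and Phgdh 0.29, 0.04 and 0.29 (adjusted p 0.0351). Pik3ip1 gave 0.50, 0.29 and 0.50 (adjusted p 0.0379) and Peg3 0.47, 0.24 and 0.24 (adjusted p 0.0458).

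On the lower side Adm gave -0.64, -0.12 and -0.28 (adjusted p 0.00947), Ptx3 -1.02, -0.22 and -0.42 (adjusted p 0.0104) and Ccl20 -0.11, -0.75 and -0.45 (adjusted p 0.0348). Zfp36 gave -0.12, -0.24 and -0.50 (adjusted p 0.0372), Rcan1 -0.28, -0.02 and -0.22 (adjusted p 0.0484) and Stard4 -0.29, -0.18 and -0.57 (adjusted p 0.0487). The pooled calls of Adm, Ccl20 and Rcan1 were kept in 11, 10 and 2 of the 12 leave-one-out fits. Igfbp5, which was not called in the pooled comparison, gave 0.06, -0.26 and 0.09 (adjusted p 0.0400).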

How the results depend on the processing

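The 2 scaling alternatives, TMM without interferon genes, the stricter filter, DESeq2, the fit without robust dispersion and the fits without WT or without K815R libraries kept every count within 1.5 times its value, and no scaling moved the median of all genes by more than 0.0101 on the log2 scale. DESeq2 called 827 genes, 758 of them shared with the 936. Without a filter 46 genes were higher in all 3 groups and 856 differed among them. A fit of 2 groups only (9 libraries against 3) called 498 genes, 149 higher and 349 lower, or 149 and 237 outside the lists. A minimum change of 1.2-fold left 136 genes, 9 higher and 127 lower, with 9 and 46 outside the lists, 0 higher and 55 lower in all 3 groups. Without the libraries labelled K815Q there were 572, 173 higher and 399 lower, with 173 and 286 outside the lists. Fits without a group gave no counts for all 3 groups or among them, nor did the fit of 2 groups, and the minimum change gave none among the groups. The causes were not tested.

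Leaving out 1 library gave 336 to 1226 called genes, 85 to 464 higher and 251 to 762 lower, or 85 to 463 and 153 to 637 outside the lists. In each of these the lowest count came without LacZ replicate 2 and the highest without K815R replicate 2. It gave 4 to 25 genes higher and 93 to 159 lower in all 3 groups, and 158 to 381 that differed among the groups. Of 172 named genes that were called, 29 kept the call under all alternatives run and 0 changed sign.

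With the replicate number as a block 1026 genes were called, 905 of them shared with the 936. Same-numbered libraries showed no common deviation (correlations from -0.127 to 0.122), and 5 of 12 libraries correlated best with their own number, so the numbers were not taken as pairs. The counts of list members without the libraries labelled K815Q and without LacZ replicate 2 or 3 were chosen after seeing the data.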
